A study of Mus musculus with 40 samples.

Results

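Complement genes are described here in embryonic lung tips and lung organoids: C3, Cfb, Hc, Cfi, Cd55 and C4b. These 6 genes of 55260 gene symbols (55286 in the table of LO libraries) were chosen by name, with earlier results of these data known, and those results included C3, Cfb and Hc in the culture conditions that leave out a factor. RNA sequencing was done on mouse branching lung organoids, which are grown in culture from the tip epithelium of the embryonic lung, and on such tips. The values are TPM, a length-corrected share of all transcripts scaled to a total of 997840 to 999209 per library, so levels of different genes can be compared. TPM keeps no sequencing depth, and counting precision is therefore unknown.

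The 40 libraries fall into 5 tables. Tips cover 4 embryonic days from E10.5 to E13.5, 1 day apart (1 library each). The same table holds organoid libraries (10), named by start stage and culture day: E10.5, E11.5, E13.5 and E14 at 11 days, E9.5 at 13 days, E10.5 at 18 and 32 days, E13.5 at 19 and 30 days, and E14 at 24 days. The LO table holds organoids at day 8, day 11 and day 18 and a day 11 library with DCI. The 2C table holds 2C, 2C+F10, 2C+MTG, 2C+VC and 1 library named ALL with no replicate number. The table of factor omissions holds numbered ALL libraries and the conditions ALL-FGF10, ALL-MTG and ALL-VC (n = 2 per condition), and the last table holds 1 intact organoid and 8 pieces. The labels define none of LO, DCI, 2C, F10, MTG, VC and ALL, and give no strain, no culture day for the ALL and 2C libraries and no origin of the replicates. Reading a plus as an addition and a minus as an omission is an assumption, and p-values measure the spread between these libraries, which may be technical.

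Complement is a cascade of plasma proteins and membrane regulators. The classical and lectin pathways use C4 and C2, and the alternative pathway uses factor B, to build convertases that cleave C3; cleaved C3 tags surfaces and leads on to cleavage of C5, which starts the membrane attack complex. Liver makes most plasma complement, and the airway and alveolar epithelium of the lung also produces components such as C3 and C5 locally.

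C3 encodes the central component of the cascade and lies on the minus strand of chromosome 17, 57203970 to 57228136 (GENCODE M21, GRCm38, as for the other coordinates). Cfb, encoding the protease factor B, lies at 34856374 to 34862518 of chromosome 17. Hc encodes C5 and spans 34983331 to 35061438 of chromosome 2. C4b, a component of the classical and lectin pathways, lies at 34728380 to 34743882 of chromosome 17. Cfi, at 129835884 to 129875332 of chromosome 3, encodes factor I, which inactivates cleaved C3 and C4. Cd55, at 130439027 to 130462744 of chromosome 1, encodes decay-accelerating factor, a membrane protein that dissociates the convertases.

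Some of these loci are not cleanly separable by sequence. Gm20547, which overlaps Cfb on its strand, held at most 3.61 TPM. Gm13449, antisense to Hc, held at most 1.77 TPM, and Gm16083, antisense to Cd55, at most 1.75 TPM. The labels do not say whether counting used strand, so reads of Hc and Cd55 cannot be told apart from those of their antisense genes. Of the 50-nt windows of C4b transcripts, 34.57% also occur in C4a, so the values of C4b are uncertain. For Cd55 the share with Cd55b was 8.0%, while C3 shared no window with Hc, nor Cfb with C2.

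RefSeq promoters (GRCm38.p6, 250 bases before the RefSeq start, minus strand) were matched for 3 of the 6 members, C3, Hc and Cd55. They are shown as sequence only, and no link to the courses of C3 and Hc in the cultures described below was tested. Capitals mark matches to the C/EBP motif TTGCNNAA in C3 (chr17:57228137-57228386) and to the letters TATAAA in Hc (chr2:35061413-35061662). Cd55 (chr1:130462745-130462994) held no match to either.
C3: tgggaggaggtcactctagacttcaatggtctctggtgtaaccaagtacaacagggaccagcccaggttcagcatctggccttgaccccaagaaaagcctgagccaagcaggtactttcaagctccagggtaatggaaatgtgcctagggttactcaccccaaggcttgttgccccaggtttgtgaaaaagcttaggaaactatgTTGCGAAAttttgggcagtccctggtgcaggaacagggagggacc
Hc: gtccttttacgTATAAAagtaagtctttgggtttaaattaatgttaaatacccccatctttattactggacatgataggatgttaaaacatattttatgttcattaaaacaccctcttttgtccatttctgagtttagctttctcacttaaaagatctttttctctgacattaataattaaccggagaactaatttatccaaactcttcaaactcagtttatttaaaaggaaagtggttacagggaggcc
Cd55: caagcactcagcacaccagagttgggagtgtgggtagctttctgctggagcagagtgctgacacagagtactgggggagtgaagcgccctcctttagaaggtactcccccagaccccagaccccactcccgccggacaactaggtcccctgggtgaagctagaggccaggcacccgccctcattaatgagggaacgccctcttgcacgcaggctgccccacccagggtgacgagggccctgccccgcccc
The C3 match spans bases -45 to -38 from the start, and the Hc match bases -239 to -234. Both strands were searched, and none of the 3 held the STAT motif TTCNNNGAA or the NF-kB consensus. Over all 27025 promoters of the same length, 9.55% held the C/EBP motif, 13.0% TATAAA, 7.18% the STAT motif and 7.01% the NF-kB consensus. A match of letters is not a bound site.

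Over the 40 libraries the 6 genes differed widely in level and in how far they ranged. Hc ran from 0.36 to 539.43 TPM, with at least 100 TPM in 31 libraries. C3 ran from 0.04 TPM in LO day 8 to 385.07 TPM in the lower right piece. Cfb ran from 0 (2 libraries) to 165.35 TPM. Cd55 stayed within 4.99 to 104.55 TPM and reached 1 TPM in all 40 libraries. Cfi lay between 0.41 and 39.99 TPM. C4b was listed at 0 in 21 libraries and reached 1 TPM in 3, with a highest value of 2.54 TPM.

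The order of the members changed between sets. Hc was the highest of the 6 in 28 libraries, C3 in 7, Cd55 in 3 and Cfi in 2. C3 exceeded Hc in 8 libraries: both ALL replicates, both ALL-VC replicates, 3 pieces and the E12.5 tip.

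**Figure D1:**
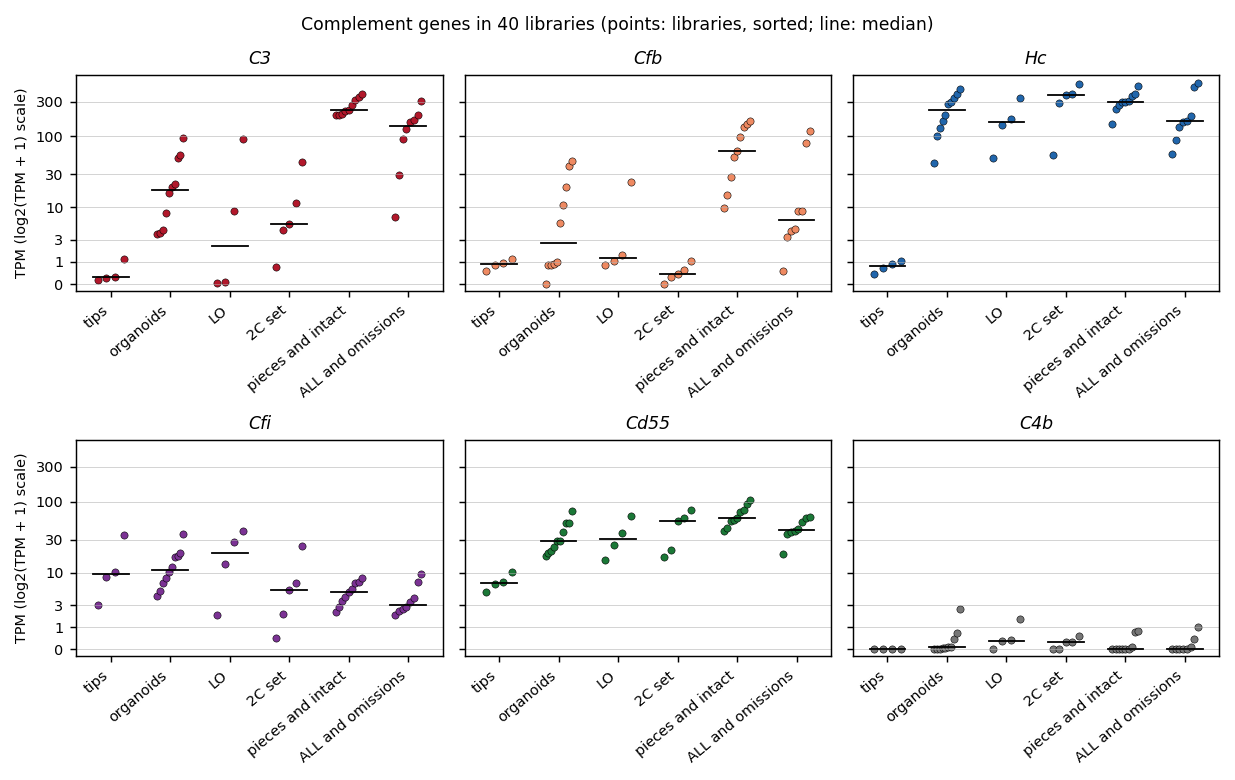
TPM of each complement gene (y axis, spaced as log2(TPM + 1)) in tips, organoids, LO, 2C, piece and omission libraries (x axis). Each point is 1 library, sorted within its set, and the line is the set's median. Hc lies at 0.36 to 1.04 TPM in tips and at 43.16 TPM or more in every other library, and C4b never exceeds 2.54 TPM.

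The libraries carried epithelial markers throughout. Epcam ran from 189.42 to 640.22 TPM and Nkx2-1 from 229.48 to 475.82 TPM over all 40. Sftpc, encoding surfactant protein C, ran from 37.02 to 210.38 TPM in tips against 49075.94 to 124839.33 TPM in organoids of the same table. Markers of other cells that express complement were low in most sets. The 7 leukocyte and macrophage markers summed to between 0.76 and 7.65 TPM in every library, and the 6 hepatocyte markers to at most 35.55 TPM. The 7 mesenchyme markers summed to 92.58 to 189.4 TPM in tips and varied from 2.95 to 329.7 TPM between organoids. In these bulk libraries, fewer cells that express a gene and less RNA per cell cannot be told apart.

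In embryonic tips the activating components were nearly silent, whereas the regulators were present. C3 read 0.26 TPM at E10.5, 0.20 at E11.5, 1.22 at E12.5 and 0.12 at E13.5. Cfb read 0.95, 0.49, 0.81 and 1.16 TPM in the same order, and Hc 0.36, 0.68, 0.85 and 1.04 TPM. C4b was listed at 0 in all 4. None of these 4 genes passed 1.22 TPM in any tip.

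The regulators Cd55 and Cfi led the 6 genes in the tips. Cd55 read 7.16, 10.32, 6.74 and 4.99 TPM from E10.5 to E13.5. Cfi read 3.06, 8.70, 10.26 and 35.29 TPM, each stage above the one before. The fitted difference over the 3 embryonic days was 2.91 ± 0.81 (SE) on the log2(TPM + 1) scale for Cfi, which did not pass the threshold in limma (adjusted p = 0.15). None of the 5 members tested changed with embryonic day, where 0.733% of 16779 genes did (0.0841% without the E13.5 tip). C4b was not tested, since it did not reach 1 TPM in 2 of the 14 libraries. The spread of the organoids around their own lines entered this fit.

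Organoids carried far more Hc, C3 and Cd55 than tips. Hc ran from 43.16 to 441.18 TPM in organoids with a median of 236, and C3 from 3.83 to 96.76 TPM with a median of 18.0. Cd55 ran from 17.44 to 74.19 TPM with a median of 29.0. For these 3 genes every organoid lay above every tip, a separation that was not counted over all genes.

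The log2(TPM + 1) difference of the 10 organoids from the 4 tips was 6.85 ± 0.47 for Hc (adjusted p = 1e-08), 3.65 ± 0.73 for C3 (adjusted p = 0.00042) and 2.02 ± 0.33 for Cd55 (adjusted p = 6.4e-05), by limma with Benjamini-Hochberg adjustment over 16779 genes. Cfb (1.65 ± 0.95, adjusted p = 0.14) and Cfi (0.14 ± 0.53, adjusted p = 0.82) did not pass the test, and for both the groups overlapped. With 3 of 5 tested members called, all higher, the share was close to that of all genes, of which 61.9% were called and 21.7% were higher. Such a share is therefore no result about the members. Tips and organoids also differ in how the tables list short genes of 100 to 150 nt: 0 of them were above 0 in any tip, against 31 to 75 in each organoid. That difference and the difference between tips and organoids cannot be told apart.

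The rest of the complement system, a list of 49 genes, gave 21 to test between tips and organoids. Of these, 7 were higher and 7 lower, with a median of 0.54 against -0.20 for all genes tested. The share called is near the 61.9% of all genes and is no result about the list. Clu, encoding the soluble inhibitor clusterin, rose from 102 ± 26.4 TPM (SD, n = 4) to 2460 ± 865 TPM (n = 10). C6, a component of the membrane attack complex, was listed at 0 in all 4 tips and at 2.36 to 60.44 TPM in organoids. The membrane regulators Cd59a (1.63 ± 0.28 on the log2 scale) and Cr1l (0.77 ± 0.11) rose. Cpn1, the catalytic subunit of carboxypeptidase N, fell by 1.84 ± 0.41, and Serping1, the inhibitor of the C1 proteases, by 1.81 ± 0.49. In the same contrast 5 of 7 mesenchyme markers (median -2.2) and 5 of 5 endothelium markers (median -1.39) fell, the latter from sums of 5.06 to 26.01 TPM in tips to at most 0.48 TPM in organoids. Their part in these differences was not tested. The complement receptors gave no value to test, since none of the 7 passed the filter.

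Within the organoids the members separated by culture day. Hc was highest in the youngest cultures, and Cfb, Cd55 and, less evenly, C3 in older ones. At 11 days Hc read 385.23 (E10.5 start), 332.81 (E11.5), 299.06 (E13.5) and 441.18 TPM (E14). It read 194.84 TPM at 13 days, 276.49 at 18, 162.10 at 19, 131.02 at 24, 100.92 at 30 and 43.16 at 32 days. The 4 cultures of 11 days were the 4 highest, and the 2 oldest the lowest.

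Cfb ran the other way. It read 0.84, 0.99, 0 and 0.89 TPM in the 11-day cultures started at E10.5, E11.5, E13.5 and E14, and 0.82 TPM at 13 days. It then read 19.90 TPM at 18 days, 5.74 at 19, 45.71 at 24, 39.59 at 30 and 10.70 at 32 days. No culture of up to 13 days reached 1 TPM, and every culture of 18 days or more exceeded 5 TPM, so the 2 ranges did not overlap. The share of all genes that separate in this way by culture day was not counted.

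C3 read 4.45, 3.90, 3.83 and 8.16 TPM in the 11-day cultures in the same order of start stage, and 16.22 TPM at 13 days. It peaked at 96.76 TPM in the E10.5 culture of 18 days and read 21.87 at 19, 55.90 at 24, 49.99 at 30 and 19.73 TPM at 32 days. All 5 cultures of 18 days or more lay above all 5 younger ones, but the oldest was the lowest of the 5. As for Cfb, this split at 18 days was chosen after the values were seen. The share of all genes that separate in this way was not counted.

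Cd55 read 17.44, 20.92, 23.72 and 19.18 TPM at 11 days and 29.05 TPM at 13 days. It read 28.94 TPM at 18 days, 38.00 at 19, 50.32 at 24, 74.19 at 30 and 50.27 at 32 days. Cfi was highest at 11 days with an E14 start, at 35.64 TPM, and lowest at 13 days, at 4.36 TPM, and its young and old cultures overlapped. C4b reached 1 TPM in 1 organoid only, E14 at 24 days with 2.54 TPM.

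**Figure D2:**
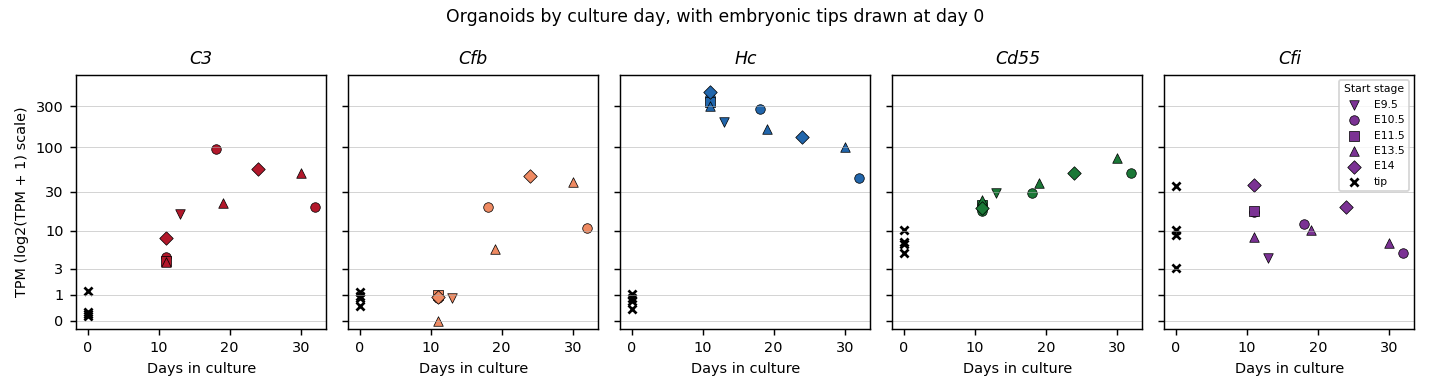
TPM of 5 complement genes (y axis, spaced as log2(TPM + 1)) against days in culture (x axis) for 10 organoids, 1 library per point, with the shape giving the start stage and crosses at day 0 the 4 tips. Hc declines from 299.06 to 441.18 TPM at 11 days to 43.16 TPM at 32 days, while Cfb stays under 1 TPM up to 13 days and exceeds 5 TPM from 18 days on.

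Over the range of 21 culture days, Hc fell by 2.49 ± 0.27 on the log2(TPM + 1) scale (adjusted p = 0.00075). Cfb rose by 4.36 ± 0.85 (adjusted p = 0.0093) and Cd55 by 1.58 ± 0.23 (adjusted p = 0.0022), by limma in a fit with start stage. C3 did not pass the threshold (2.71 ± 0.89, adjusted p = 0.079), nor did Cfi (-1.08 ± 0.52, adjusted p = 0.22). Of all 16779 genes, 9.64% changed with culture day, and 2.58% without the E10.5 culture of 32 days. The call for C3 turned on 2 libraries: without the E10.5 culture of 18 days the difference was 2.63 (adjusted p = 0.021), and without that of 32 days 4.59 (adjusted p = 0.030).

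Each combination of stage and day has 1 library, so the spread around the fitted line stands in for it. Start stage, from E9.5 to E14, changed none of the 5 members tested, where 0.0536% of all genes changed. The largest fitted difference over its 4.5 days was 1.07 ± 0.52 for Cfi (adjusted p = 0.69).

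Among the other complement genes, 2 of 21 tested rose with culture day and none fell, with a median of 0.00 against -0.17 for all genes. That share is near the 9.64% of all genes called and is no result about the list. C1ra, a protease of the C1 complex, rose by 1.99 ± 0.53, from 0.28 to 2.49 TPM in cultures of up to 13 days to 3.31 to 10.61 TPM in later ones. It was called in 13 of 21 alternative settings, with an adjusted p of up to 0.084. Cd55b, the neighbour and paralogue of Cd55, rose by 2.12 ± 0.36 but stayed at or under 4.66 TPM, which is below the level set for naming, and it is named, after its values were seen, for the sequence it shares with Cd55. Clu did not pass the test (0.14 ± 0.41). Vtn, encoding vitronectin, fell with embryonic day in tips by 2.34 ± 0.42, from 5.40 TPM at E10.5 to 0 at E13.5. Only the E10.5 and E12.5 tips reached 1 TPM, and Vtn was listed at 0 in all 10 organoids. That lack of spread entered the fit, so the SE can be too small for the tips and the call is weak. Vtn was called in 5 of 7 alternative settings, with an adjusted p of up to 0.39. The hepatocyte marker sum was 23.6, 22.11, 9.47 and 6.38 TPM over the 4 stages, with Ttr called lower, and its part in the value of Vtn was not tested.

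Of all 16779 genes, 498 rose with culture day and 1119 fell, with a median of -0.17 on the log2 scale. Of 10 interferon-response genes, 7 rose, with a median of 3.10. Of 13 tested NF-kB-response genes, 3 rose (Nfkbia, Icam1 and Lcn2), with a median of 1.23. The part of both sets in the courses of Cfb, C3 and Cd55 was not tested. None of the 7 mesenchyme markers passed the test for culture day (median -1.23), and the part of their varying sums was not tested either.

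Likeness to the members over the 10 organoid libraries was ranked among 9761 genes with a mean of at least 5 TPM. C4b, with a mean of 0.386 TPM there, is left out. The ranking is a description across libraries that differ in culture day, so genes that change together with culture day can rank as alike. For C3 the 3 genes with the highest Pearson r were Elovl1 (0.966), the iron-sequestering lipocalin Lcn2 (0.960) and the surfactant protein gene Sftpd (0.958). For Cfb they were Psme1 (0.976), Lyn (0.973) and Tmem30b (0.969). For Hc they were Alg2 (0.975), Dpm2 (0.965) and Homer3 (0.962), and for Cfi Src (0.937), Zpr1 (0.920) and Slc39a6 (0.908). For Cd55 they were Ldha (0.967), Rab21 (0.962) and Ifit3b (0.959). Between members, r was 0.900 for C3 with Cfb and -0.864 for Hc with Cd55.

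In the LO libraries, with 1 library per condition and so no test, the activating genes came up at different times. Hc read 50.45 TPM at day 8, 143.30 at day 11 and 340.34 at day 18. C3 read 0.04, 0.08 and 92.73 TPM on the same days, and Cfb 1.08, 0.83 and 23.56 TPM. Hc was therefore already present at days 8 and 11, when C3 and Cfb read no more than in the highest tip.

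The regulators took other courses in LO. Cfi read 39.99, 28.17 and 13.45 TPM at days 8, 11 and 18, and Cd55 25.28, 15.20 and 37.30 TPM. C4b read 0, 0.31 and 0.33 TPM. Genes were counted where log2(TPM + 1) differed by at least 1 and the higher library had at least 5 TPM. From day 8 to day 11, Hc alone of the members passed this (a ratio of 2.84), as did 5.25% of genes. From day 11 to day 18, C3, Cfb, Hc and Cd55 passed upwards and Cfi downwards, as did 14.1% of genes in either direction. The log2 differences in that step were 6.44 for C3, 3.75 for Cfb, 1.24 for Hc, 1.24 for Cd55 and -1.01 for Cfi. NF-kB-response genes summed to 96.26, 131.26 and 2767.45 TPM over the 3 days, and their part in these differences was not tested. The mesenchyme sum was 15.53, 71.03 and 3.76 TPM on the same days and 64.96 TPM with DCI, and its part was not tested either.

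The direction for Hc over LO days 8 to 18 was upward, whereas over culture days 11 to 32 in the organoids of the other table it was downward. The 2 tables share only the days 11 and 18, and the difference between them was not tested.

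With DCI at day 11, C3 read 8.97 TPM against 0.08 TPM without it, and Cd55 63.20 against 15.20 TPM. Cfi read 1.93 TPM with DCI against 28.17 TPM without. These 3 genes passed the rule of size, which 24.2% of genes passed. Cfb (1.46 against 0.83 TPM) and Hc (173.67 against 143.30 TPM) did not. C4b read 1.56 TPM with DCI, its second highest value in the series, against 0.31 TPM. In both the DCI and the day 18 library C3 and Cd55 were above day 11 and Cfi below it. The 2 comparisons share the day 11 library.

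In the 2C set each condition was again a single library, and C3 and Cfi varied most. The 2C library held C3 at 4.38, Cfb at 0.38, Hc at 282.87, Cfi at 5.47, Cd55 at 54.76 and C4b at 0.28 TPM. With F10 added, C3 read 11.77 TPM and Cfi 0.41 TPM, its lowest value anywhere, and these 2 members passed the rule of size, as did 5.9% of genes. With VC added, C3 read 44.40 TPM, a ratio of 10.14, and Cfi 2.03 TPM, and these 2 passed, as did 9.61% of genes. F10 and VC thus went with more C3 and less Cfi in single libraries that share the 2C library. The NF-kB-response genes summed to 118.19 TPM in 2C+MTG, 173.45 in 2C, 288.77 in 2C+F10 and 698.88 TPM in 2C+VC, the same order as C3, and their part was not tested.

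With MTG added, the members at high level were lower. Hc read 56.41 TPM against 282.87 in 2C and Cd55 21.10 against 54.76 TPM, and both passed, as did 7.52% of genes. C3 read 0.73 TPM there, its lowest value of the set. Cfb stayed between 0 and 1.04 TPM in all 5 libraries of the set. The mesenchyme sum was 98.21 TPM in 2C+F10 against 1.07 to 5.59 TPM in the other 4, and its part in the values of that library was not tested.

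**Figure D3:**
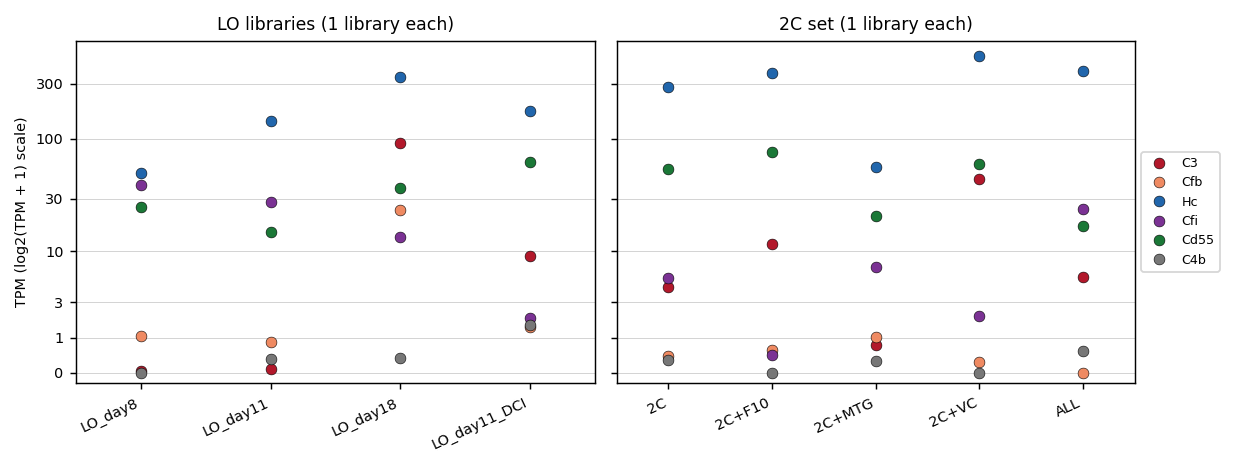
TPM of the 6 complement genes (y axis, spaced as log2(TPM + 1)) in 4 LO libraries (left) and 5 libraries of the 2C table (right), 1 library per position on the x axis. C3 and Cfb appear at LO day 18, at 92.73 and 23.56 TPM, and C3 reaches 44.40 TPM in 2C+VC.

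The ALL library without a replicate number lay far from the 2 numbered ALL libraries in C3, Cfb and Hc. Set beside 2C, it held Cfi higher (24.52 against 5.47 TPM) and Cd55 lower (17.17 against 54.76 TPM), and these 2 members passed the rule of size, as did 12.3% of genes. It held C3 at 5.64, Cfb at 0, Hc at 382.21 and C4b at 0.53 TPM. The numbered ALL libraries held C3 at 304.19 and 194.67, Cfb at 118.84 and 81.84, Hc at 136.53 and 192.34, Cfi at 1.93 and 7.17 and Cd55 at 61.92 and 58.91 TPM. For C3, Cfb, Hc, Cfi and Cd55 the unnumbered library lay outside the range of the numbered pair. For all of these but Cd55 (17.17 TPM, lowest 17.44) it lay within the range of the 4 organoids of 11 days. The unnumbered library comes from another table, the labels give no culture day for either, and the difference was not tested. Every comparison with ALL below rests on the numbered pair and would change with the other library in its place.

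In the omission conditions the 6 genes are described without a test, since their earlier results there were known. Cfb separated ALL from all 3 omissions, C3 separated ALL-MTG from the rest, and Hc separated ALL-FGF10 at the upper and ALL-VC at the lower end. How many of all genes separate in these ways, or as Cd55 does below, was not counted.

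Cfb read 118.84 and 81.84 TPM in ALL, 8.71 and 3.31 in ALL-FGF10, 0.50 and 4.32 in ALL-MTG and 4.54 and 8.72 TPM in ALL-VC. Both ALL libraries thus lay above all 6 omission libraries, none of which exceeded 8.72 TPM. The log2(TPM + 1) differences from ALL were -3.94 ± 0.64 without FGF10, -5.14 ± 0.64 without MTG and -3.76 ± 0.64 without VC.

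C3 read 304.19 and 194.67 TPM in ALL, 158.40 and 125.49 in ALL-FGF10, 7.27 and 28.94 in ALL-MTG and 92.86 and 165.52 TPM in ALL-VC. The 2 ALL-MTG libraries were the lowest, although they differed from each other (18.1 ± 15.3 TPM, SD, n = 2). The log2 differences from ALL were -3.96 ± 0.57 without MTG, -0.78 ± 0.57 without FGF10 and -0.97 ± 0.57 without VC. The 4 libraries of ALL-FGF10 and ALL-VC overlapped one another.

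Hc read 136.53 and 192.34 TPM in ALL, 473.74 and 539.43 in ALL-FGF10, 164.24 and 160.26 in ALL-MTG and 58.01 and 88.52 TPM in ALL-VC. ALL-FGF10 held the highest 2 values and ALL-VC the lowest 2, while ALL-MTG lay within the range of ALL. The log2 differences from ALL were 1.64 ± 0.24 without FGF10, -1.17 ± 0.24 without VC and 0.00 ± 0.24 without MTG. Between omissions, the log2 difference of Hc in ALL-FGF10 was 2.80 ± 0.24 from ALL-VC and 1.63 ± 0.24 from ALL-MTG. For ALL-MTG minus ALL-VC it was 1.17 ± 0.24 for Hc and -2.99 ± 0.57 for C3, so these 2 genes went opposite ways between that pair.

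The regulators varied less. Cd55 read 61.92 and 58.91 TPM in ALL, 35.47 and 38.47 in ALL-FGF10, 18.84 and 39.62 in ALL-MTG and 41.85 and 52.27 TPM in ALL-VC. Both ALL libraries were the highest, and the log2 differences from them were -0.69 ± 0.31, -1.11 ± 0.31 and -0.36 ± 0.31 in that order. Cfi read 1.93 and 7.17 TPM in ALL and between 2.31 and 9.62 TPM in the omissions, and all 4 groups overlapped. C4b reached 1 TPM in 1 ALL replicate (1.04 TPM) and was listed at 0 in all 4 libraries of ALL-FGF10 and ALL-VC.

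**Figure D4:**
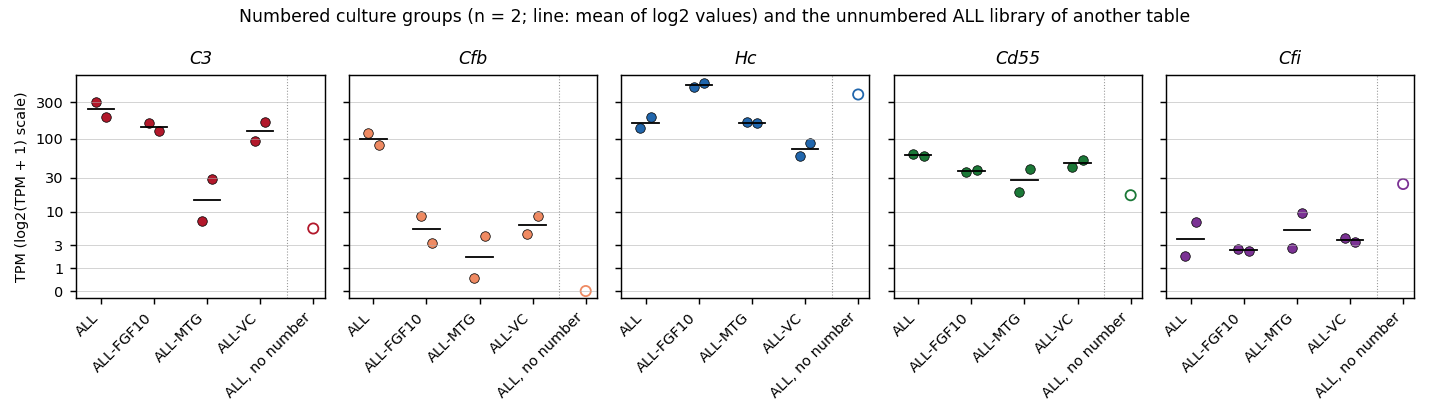
TPM of 5 complement genes (y axis, spaced as log2(TPM + 1)) in the numbered ALL libraries and in the omissions of FGF10, MTG and VC (n = 2 each, points; line, mean of the log2 values) and in the unnumbered ALL library of another table (open circle). Cfb is at 81.84 to 118.84 TPM in numbered ALL and at 8.72 TPM or less elsewhere, and Hc is highest in ALL-FGF10.

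C2, which encodes the counterpart of factor B in the classical pathway and is the neighbour of Cfb on chromosome 17, moved in the same contrasts. It read 12.02 and 13.94 TPM in ALL, 2.75 and 3.46 in ALL-FGF10, 0.98 and 0.88 in ALL-MTG and 4.01 and 3.86 TPM in ALL-VC. C2 fell by 1.77 ± 0.26 on the log2 scale without FGF10 (adjusted p = 0.024) and fell by 2.85 ± 0.26 without MTG (adjusted p = 0.013), by limma over 14802 genes. Without VC the difference was -1.5 ± 0.26 (adjusted p = 0.058). Over 17 alternative settings C2 was called in 8 without FGF10, with an adjusted p of up to 0.36, and in 14 without MTG.

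C2 was the only one of the 17 other complement genes tested that was called against ALL, once without FGF10 (median -0.39, all genes 0.10) and once without MTG (median -0.80, all genes 0.07). Without VC limma called 0 of 17 (median -0.39, all genes 0.18), and at other settings up to 2. Of all genes, 1.83% were called for ALL-FGF10, 0.513% for ALL-MTG and 0.804% for ALL-VC against ALL. These shares moved with single libraries. The first ran from 0.0621% without ALL-FGF10 replicate 2 to 7.89% without ALL replicate 1, the second from 0.124% without ALL-FGF10 replicate 1 to 1.31% without ALL-MTG replicate 2, and the last from 0.0547% without ALL-VC replicate 1 to 8.99% without ALL replicate 1. At an unadjusted p under 0.05 limma gave 2533 genes for ALL-VC against ALL.

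Between omissions 3 more genes of the complement list differed. Mbl1, a mannose-binding lectin, stood at 5.63 and 5.84 TPM in ALL-FGF10 against 0.35 and 0 TPM in ALL-MTG (log2 difference 2.54 ± 0.41, adjusted p = 0.021). Clu stood at 541.09 and 586.70 TPM in the former against 4197.27 and 1929.11 TPM in the latter (log2 difference -2.33 ± 0.31, adjusted p = 0.011). Cpn1 stood at 9.21 and 8.50 TPM in ALL-FGF10 against 2.49 and 2.35 TPM in ALL-VC (log2 difference 1.53 ± 0.32, adjusted p = 0.046). Over 17 alternative settings each, Mbl1 was called in 11, Clu in 14 and Cpn1 in 7, with adjusted p of up to 0.24, 0.12 and 0.33. Of all genes, 3.52% were called between ALL-FGF10 and ALL-MTG, 3.82% between ALL-FGF10 and ALL-VC and 0.547% between ALL-MTG and ALL-VC. They ran from 0.131% (without ALL-FGF10 replicate 1) to 5.74% (ALL replicate 2), from 0.104% (ALL-FGF10 replicate 2) to 6.64% (ALL replicate 1) and from 0.0411% (ALL-VC replicate 1) to 1.39% (ALL-MTG replicate 2). In the last contrast limma called 0 of the 17 complement genes (1930 of all genes at an unadjusted p under 0.05).

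Several other quantities also differed between these libraries, and their part in the results was not tested. The 14 NF-kB-response genes summed to 5737.03 to 8767.42 TPM in ALL, 1823.15 to 2159.45 in ALL-FGF10, 671.96 to 1741.39 in ALL-MTG and 2259.66 to 2704.18 TPM in ALL-VC. They summed to 254.18 TPM in the unnumbered ALL library. The mesenchyme sum was 94.34 and 4.69 TPM in the 2 ALL libraries and 180.02 and 8.52 TPM in those of ALL-MTG, against at most 1.71 TPM in the other 4. Of the short genes of 100 to 150 nt, 54 and 119 were above 0 in the pair of ALL-FGF10 libraries and 21 in ALL-MTG replicate 1, and none in the other 5. With a term for this listing, the log2 difference of ALL-FGF10 from ALL was 1.07 ± 0.58 for C3, the opposite direction. It was -2.12 ± 0.83 for Cfb and 1.60 ± 0.43 for Hc. Only in ALL-MTG did the listing differ between replicates, so the term rests on the gap between those 2 libraries. The change of direction for C3 cannot be told apart from the spread of that pair.

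The 8 organoid pieces differ in size by their labels: 4 are sides (upper, lower, left and right), each what 1 cut through the middle leaves, and 4 are corners, what 2 such cuts leave, so that each side covers the place of 2 corners. All members but C4b stood above 1 TPM in each. In the intact organoid C3 read 268 TPM, Cfb 51.58, Hc 308.01, Cfi 5.65 and Cd55 58.98 TPM. C3 ran from 195.26 to 385.07 TPM over the 8 pieces. Cfb varied most: 9.75 TPM in the upper, 27.35 in the lower, 15.01 in the left and 146.89 in the right side, and 136.08 (upper left), 97.24 (upper right), 62.65 (lower left) and 165.35 TPM (lower right) in the corners.

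Hc read 266.01 TPM in the upper and 296.66 in the lower side, and 236.19 and 146.04 in the upper against 490.53 and 360.44 TPM in the lower corners. Cd55 read 54.68 TPM in the left and 93.40 in the right side, and 55.73 and 42.89 in the left against 76.77 and 104.55 TPM in the right corners. In both cases the 2 sides did not overlap, and how many of all genes separate in this way was not counted.

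None of these differences passed the test in the fit over the pieces. For Hc, upper minus lower was -0.83 ± 0.26 on the log2 scale, and for Cd55, left minus right was -0.83 ± 0.25, with an adjusted p of 1 for each member in limma. No gene of 15017 was called in either contrast (0.0% for upper against lower and 0.0% for left against right), though 663 and 463 genes had an unadjusted p under 0.05. In the 4 corners alone Hc was called (-1.17 ± 0.29, adjusted p = 0.032), as were 0.561% of 13545 genes. With terms for both directions, that fit leaves little of its 4 libraries to estimate spread, so the call is weak. Each position has 1 library, and the labels do not say whether sides and corners come from the same organoid. For Cfb, left minus right was -1.37 ± 0.71, and the interferon-response genes summed to between 128.65 and 960.91 TPM over the same pieces, whose part was not tested.

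**Figure D5:**
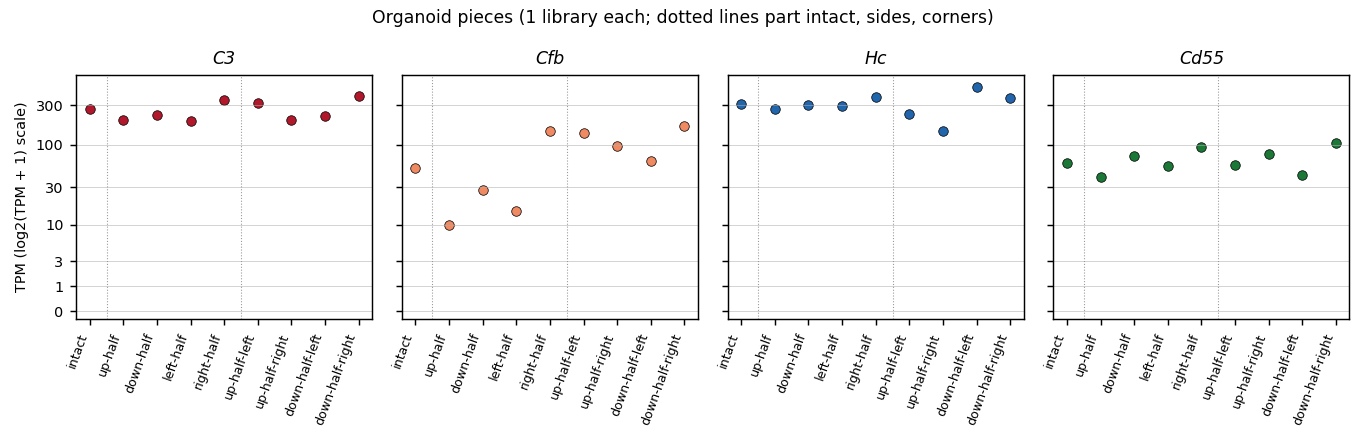
TPM of 4 complement genes (y axis, spaced as log2(TPM + 1)) in the intact organoid and in 8 pieces (x axis), 1 library each. Cfb spans 9.75 to 165.35 TPM between pieces, and C3 195.26 to 385.07 TPM.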

How the data were processed

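Per the labels' protocols, total RNA was extracted with TRIzol and libraries were made with a VAHTS mRNA kit. The authors deposited 5 tables of TPM per gene. The submitters' processing notes name RSEM, Bowtie2 and mm10 (versions and strand setting not given in the sources used here). Titles tied 40 columns to samples, and 1 further column, which names no sample, was not used.

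Values were taken as log2(TPM + 1), and genes with at least 1 TPM in at least 2 libraries of a fit were kept. Differences were tested with limma 3.58.1 (R 4.3.3, variance trend, two-sided), with Benjamini-Hochberg adjustment over all genes kept and a threshold of 0.05. The 8 omission libraries shared 1 fit, as did the 14 tips and organoids. Slopes were multiplied by 21 culture days, 4.5 days of start stage and 3 days of tip stage. The test was tried on simulated data, with changes set only in genes above 5 TPM on average. That trial does not cover the finding of changes in genes near 0. TPM keeps no depth, so no counting interval is given.

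All 6 members are named. Other complement genes are named where called with at least 5 TPM in the higher group, or in any library for slopes and pieces. The members and lists were chosen with earlier results of these data known. Alternatives covered the pseudocount, filter, scaling, variance trend, samples fitted, replicate block and omission of each library. Some were added after the values were seen: leaving out each organoid or piece, and the comparison of later with earlier organoids. Tables were never tested against each other. Figures used Python 3.11.15 with matplotlib 3.10.9, pandas 2.3.3 and numpy 2.4.6.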

Additional observations from a re-analysis of the deposited data

Results flagged for a closer look

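In 3 of 17 sets of 1 gene in 1 group of 4 to 10 libraries, 1 library lay farther from its neighbour than Dixon's limit allows, a limit that chance passes in about 1 of 20 groups of like samples. The tips and organoids are not repeats of 1 condition, each having its own stage or culture day, so that rate may not hold for them. C3 in the E12.5 tip was 1.22 TPM, with the next tip at 0.26 TPM (n = 4). Cfi in the organoid of E14 start and 11 days was 35.64 TPM, with the next organoid at 19.45 TPM (n = 10). C4b in the organoid of E14 start and 24 days was 2.54 TPM, with the next at 0.66 TPM (n = 10).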

How the results depend on the processing

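For organoids against tips, the slopes and the pieces, 490 of 509 values of single members under alternative settings kept their direction and their side of the threshold. In 15 a value that did not pass the test changed sign. The other 4 were calls not made otherwise: 3 for C3 with culture day and 1 for Hc in the corner pieces. Of those for C3, 2 are given above and the other comes from splitting the organoids at 18 days, a split chosen after the values were seen and so no support. In the corner pieces alone 1 member was called for upper against lower, against 0 in all pieces. In the omissions, 459 of 510 member values moved by less than the spread between replicates and 51 by more, 20 of them with the term for short genes and 24 without 1 of the ALL-MTG libraries.

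Counts of other complement genes called in the omissions were small and moved with the settings, and the cause was not tested. For ALL-FGF10 against ALL (1) the count was 0 with no filter, 0 with only the 2 groups fitted and 0 with the replicate block. It ran from 0 to 2 when 1 library was left out, at 0 without ALL replicate 2 or either ALL-VC or ALL-FGF10 library and 2 without either ALL-MTG library. For ALL-MTG against ALL (1) it was 0 with no filter, 0 with only the 2 groups and 0 with a term for short genes, and 1 to 3 without 1 library, the 2 and 3 arising without ALL-MTG replicate 1 and 2. For ALL-VC against ALL (0) it was 1 at a pseudocount of 5 TPM, 2 after median-ratio rescaling, 2 after quantile normalization and 1 with no variance trend, and 0 to 2 without 1 library, at 2 without ALL replicate 1. For ALL-FGF10 against ALL-MTG (2) it was 1 with no filter, 1 with only the 2 groups and 0 to 2 without 1 library, at 0 without either ALL-FGF10 library and 1 without ALL-MTG replicate 1. For ALL-FGF10 against ALL-VC (1) it was 0 at a pseudocount of 5 TPM, 0 with no filter, 0 after either rescaling and 0 with the replicate block, and 4 with only the 2 groups. Without 1 library it ran from 0 to 2, at 0 without any ALL-VC or ALL-FGF10 library and 2 without either ALL-MTG library. For ALL-MTG against ALL-VC (0) it ran from 0 to 2, at 2 without ALL-MTG replicate 2. Same-numbered replicates correlated at -0.07 to 0.114 in their deviations, so the numbers were not taken as pairs. The replicate block left the counts of the remaining omission contrasts at 1, 0, 2 and 0.

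Median-ratio rescaling moved the median log2 difference of all genes from -0.20 to 0.06 for organoids against tips, from -0.17 to 0.00 for culture day, from 0.18 to 0.00 for ALL-VC against ALL and, for ALL-MTG against ALL-VC, from -0.11 to 0.00. It turned, for organoids against tips, 3640 higher and 6752 lower genes into 5070 and 5248, for culture day 498 and 1119 into 705 and 474, and for ALL-FGF10 against ALL-VC 287 and 278 into 323 and 204. Depth is unknown, so no counting error can be given for values near 0, such as those of C3, Cfb and C4b in tips.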
